A study of Homo sapiens with 15 samples.

Results

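The transcripts of 10 genes that cells use to take up and ferment glucose, or that they switch on when oxygen runs low, were followed through a dose series of the RNA-binding protein RBM47. The 10 were fixed by name (SLC2A1, HK2, PGK1, LDHA, ENO1, PDK1, CA9, BNIP3, NDRG1 and ADM) and are 10 of the 23368 genes in the table of normalized counts. RNA was sequenced from 3 clones of human breast cancer cells, each grown from a single cell and carrying an RBM47 transgene that doxycycline, an antibiotic, switches on. WT6 and WT10 cells carry wild type RBM47, and MUT3 cells carry RBM47-I281fs, a frameshift form that cuts the protein off within the third of its RNA-binding domains. The study reported little of this mutant protein although its mRNA was strongly expressed, and took it to be unstable and inactive. The sample labels name MDA231 as the line of all 3 clones, whereas the methods of the study derive WT6 from CN34-BrM2 cells and WT10 and MUT3 from a brain metastatic derivative of MDA231. Each clone was grown in standard culture, without a low-oxygen arm, and received 0, 1, 2.5, 5 or 25 ng/ml doxycycline. There was 1 library per clone and dose, 15 in all, and every genotype is represented by no more than 2 clones, so clone and genotype cannot be told apart in MUT3 cells.

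Glucose enters these cells through the transporter SLC2A1, is trapped by the hexokinase HK2 and passes down glycolysis through the enzymes PGK1 and ENO1 to pyruvate, which LDHA turns into lactate. PDK1, a kinase, restrains the oxidation of pyruvate in mitochondria by switching off pyruvate dehydrogenase. The other 4 genes are textbook targets of low oxygen: CA9 is a carbonic anhydrase of the cell surface that controls pH, BNIP3 marks mitochondria for removal, NDRG1 is a stress-responsive growth inhibitor and ADM is a secreted peptide that widens vessels. When oxygen falls, the transcription factor HIF is no longer degraded and binds a short core sequence near such genes, which makes the group a common readout of hypoxia in tumours.

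A normalized count here is a gene's read count over the size factor of its library. The libraries held between 14955172 and 44771871 reads on genes (median 18152381), the most in WT10 at 5 ng/ml, and a floor of 3 reads corresponded to normalized counts between 1.19 and 4.09. Reads assigned to no gene made up 56.5% to 59.6% of the total in each library. The RBM47 count at the ends of the dose series was 258 and 10425 in WT6, 168 and 19877 in WT10, and 73.8 and 22084 in MUT3. The steps were uneven, since 5 ng/ml gave less RBM47 in WT6 (3966) than 2.5 ng/ml did (8094), and MUT3 had only 949 at 5 ng/ml. Vimentin (VIM) was abundant in every library, between 50755 and 104639, while the epithelial cadherin CDH1 did not exceed 19.9. Other epithelial transcripts were present in every library. The keratin KRT8 lay between 8159 and 31010, the keratin KRT18 between 8663 and 24036, and EPCAM between 136 and 456.

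In WT6 cells at 5 and 25 ng/ml, change from the untreated library followed transcript length across the genes tested below. The shortest transcripts (the lowest of 5 equal length classes, up to 1781 bases) had median log2 changes of 0.60 and 0.58 at these doses, and the longest class had -0.41 and -0.46. Over the 5 length classes the medians stayed between -0.082 and 0.062 in WT10 cells and between -0.044 and 0.048 in MUT3 cells. BNIP3 and ADM, with transcripts of 1542 and 1492 bases, belong to the shortest class, and ENO1 (1781 bases) lies on its border with the next class. CA9 (1546 bases) has a length within the shortest class but was not among the genes tested. SLC2A1 (3384 bases) and NDRG1 (3025 bases) lie in the middle class, whose medians in WT6 were -0.049 and -0.026.

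The core that HIF binds was looked for in RefSeq promoters (build GRCh38.p14, 250 bases before to 50 bases after each start site), as ACGTG or GCGTG on either strand, where the palindrome CACGTG counts as 2 matches. The table holds promoters of 9 of the 10 genes, 12 promoters in all, and not of NDRG1. At least 1 match was present in 11 of the 12, against 48.4% of all 35116 promoters, and ACGTG was present in 7 of the 12, against 21.4%. These are letters in a window, not measured binding. Sequence outside the window was not searched, and the 10 genes were chosen by name as genes of hypoxia and glycolysis. The stretches printed, 5′ to 3′ on the strand of the gene with the matches in capitals, are from the transporter that fell with the dose, from CA9, which was near the floor in WT10 and MUT3, from 2 glycolytic enzymes and from the gene with the widest difference between WT10 and MUT3.
SLC2A1, 15 to 39 bases after the start site, minus strand of chr1:42958829-42958853: gcaacagcgaGCGTGccggtcgcta
CA9, 28 to 4 bases before the start site, plus strand of chr9:35673900-35673924: gtttccaatgCACGTacagcccgta
PGK1, 221 to 169 bases before the start site, plus strand of chrX:78104027-78104079: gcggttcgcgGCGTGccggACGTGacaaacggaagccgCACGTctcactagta
LDHA, 97 to 59 bases before the start site, plus strand of chr11:18394466-18394504: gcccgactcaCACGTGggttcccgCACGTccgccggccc
ADM, 111 to 87 bases before the start site, plus strand of chr11:10304962-10304986: gcaggagcgcGCGTGgctgaggaaa
SLC2A1 thus had a single match, of the GCGTG form and downstream of its start, whereas LDHA had 6 in this promoter and PGK1 had 4 in the whole window.

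The first question was whether the group as a whole moved in the same direction with the doxycycline dose. In the main fit it did not: the glucose transporter fell and NDRG1 rose with the dose in both wild type clones, and the other 7 genes that could be tested passed in neither clone. A slope on log2(dose + 1) was fitted for each clone with limma to log2(normalized count + 1) of the 12644 genes that averaged 10 or more in every clone, with p-values adjusted over all of them by Benjamini-Hochberg. Of the 10 genes 9 entered the fit. The exception was CA9. In WT6 cells 2 of the 9 passed an adjusted p of 0.05, 1 in each direction, where 57.5% of all genes tested passed. In WT10 cells 2 of the 9 passed, again 1 in each direction, where 20.0% of all genes passed. In MUT3 cells 0 of the 9 passed and 0% of all genes did, and 0 of the 9 had an unadjusted p under 0.05. Of all genes 295 had one in MUT3, and on the reads of 14 libraries edgeR called 0 of the 9 and DESeq2 0. The limma test in MUT3 did not call the transgene itself (RBM47, adjusted p = 0.0517), although its count went from 73.8 to 22084. A lack of calls in MUT3, here and in the lists below, therefore does not show that no gene responded. The median slope of the 9 was -0.013 in WT6, 0.025 in WT10 and 0.0016 in MUT3, beside 0.0053, -0.0027 and 0.0033 for all genes, and the median size of a slope in WT6, leaving the sign aside, was 0.013 for the 9 and 0.12 for all genes. The count in WT6 depended on the scale. With trends of transcript length and GC content removed, as described below, 7 of the 9 passed there, 2 higher and 5 lower.

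**Figure D1:**
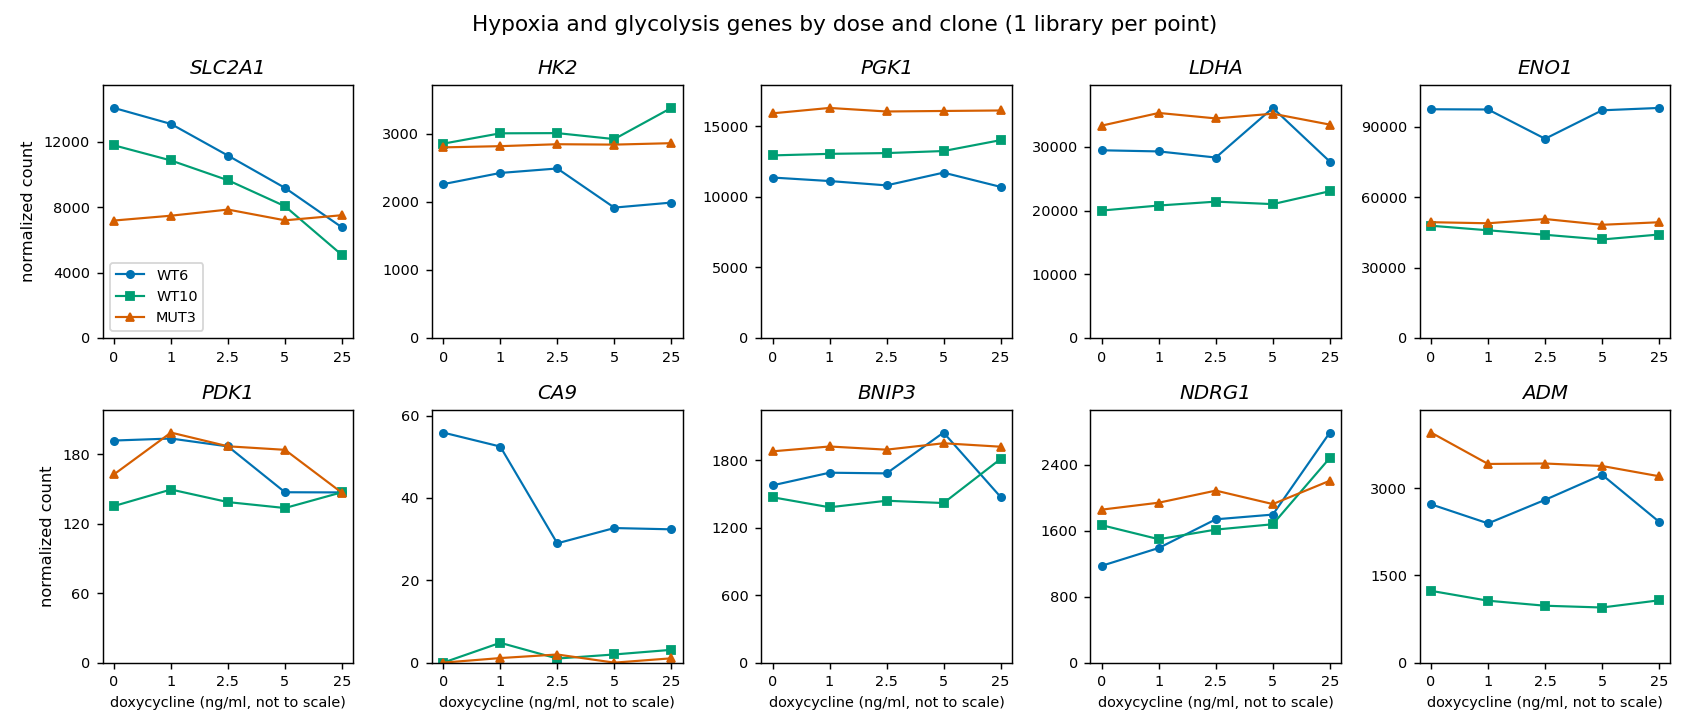
Normalized count of each of the 10 genes (vertical axis, from 0) at 0, 1, 2.5, 5 and 25 ng/ml doxycycline (horizontal axis, doses evenly spaced), with 1 library per point and 1 line per clone. SLC2A1 steps down and NDRG1 ends higher in WT6 and WT10. The ranges of PGK1 do not overlap between any of the clones. The WT10 line of LDHA and the WT6 line of ENO1 lie apart from those of the other clones.

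SLC2A1 (ENSG00000117394, also called GLUT1, hg19 minus strand, chr1:43391024-43424564) encodes the main glucose transporter of most tumour cells. From the untreated library to the highest dose, the normalized counts in WT6 were 14056, 13078, 11144, 9171 and 6758. Those in WT10 were 11774, 10847, 9638, 8050 and 5070. Those in MUT3 were 7177, 7473, 7847, 7190 and 7503. The count therefore stepped down at every dose in both wild type clones, and in MUT3 all 4 treated libraries lay slightly above the untreated one.

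At 25 ng/ml the SLC2A1 count was 0.481 of the untreated one in WT6 (95% exact interval of the counting error 0.466 to 0.496) and 0.431 of it in WT10 (0.416 to 0.445), but 1.05 of it in MUT3 (1.01 to 1.08). These intervals do not cover variation between cultures. The fitted slope was -0.24 in WT6 (SE 0.025, limma adjusted p = 7.33e-06) and -0.27 in WT10 (SE 0.025, adjusted p = 1.08e-05), against 0.0069 in MUT3 (SE 0.025, adjusted p = 1.00), each in log2 units per unit of log2(dose + 1). Counted from the steepest fall, it ranked 38 of the 12644 genes in WT10 and 895 in WT6. The study placed SLC2A1 among genes it selected on these same libraries for a fall with RBM47 and no correlation in MUT3. Neither the direction nor the difference from MUT3 is therefore independent evidence. Without the WT10 library at 25 ng/ml the WT10 slope was -0.21 (limma adjusted p = 0.0971), and 6 of all 12644 genes were then called in WT10. The annotation lists the pseudogene ATP6V0CP4 within SLC2A1 on the same strand.

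NDRG1 (ENSG00000104419, hg19 minus strand, from 134249418 to 134314265 on chromosome 8) moved the other way. In order of dose, its normalized counts in WT6 were 1175, 1391, 1738, 1796 and 2790. In WT10 they were 1667, 1497, 1614, 1678 and 2483, and in MUT3 1856, 1940, 2087, 1923 and 2206. Thus WT6 rose throughout the series, while in WT10 only the library at the highest dose stood above the rest, and in MUT3 the range was narrow with its highest count also at 25 ng/ml.

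The NDRG1 slope was 0.26 in WT6 (SE 0.031, limma adjusted p = 1.82e-05), 0.14 in WT10 (SE 0.031, adjusted p = 0.00686) and 0.047 in MUT3 (SE 0.031, adjusted p = 1.00). At 25 ng/ml the count was 2.38 times the untreated one in WT6 (95% exact interval of the counting error 2.21 to 2.56), 1.49 times in WT10 (1.40 to 1.59) and 1.19 times in MUT3 (1.11 to 1.27). The call in WT10 rested on 1 library: without WT10 at 25 ng/ml the slope was 0.012 (limma adjusted p = 0.925).

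The slopes of the wild type clones were then set against MUT3 in the same fit. For 2 of the 9 genes the average of the WT6 and WT10 slopes differed from the MUT3 slope, where 24.6% of all genes tested differed. The difference was -0.26 for SLC2A1 (SE 0.030, limma adjusted p = 0.000355) and 0.15 for NDRG1 (SE 0.038, adjusted p = 0.0114). Neither call was made without MUT3 at 25 ng/ml, where the values were -0.26 for SLC2A1 (limma adjusted p = 0.0893) and 0.17 for NDRG1 (adjusted p = 0.204), and 3 of all genes were called. For NDRG1 the call also ended without MUT3 at 0 ng/ml (0.16, adjusted p = 0.0541) and without WT10 at 25 ng/ml (0.090, adjusted p = 0.113).

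**Figure D2:**
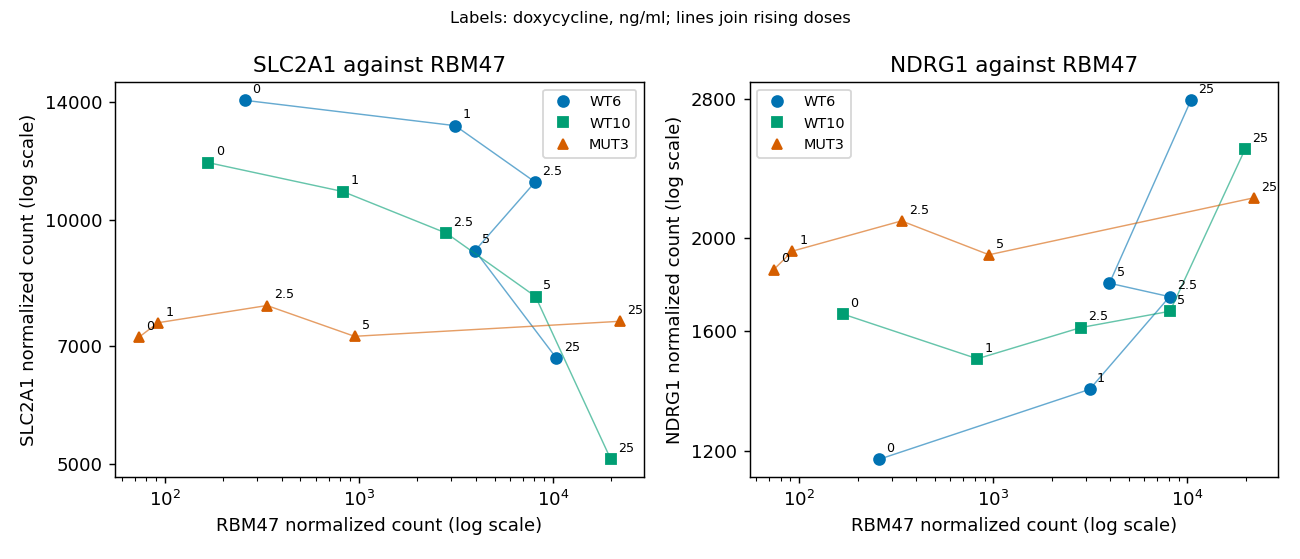
Normalized counts of SLC2A1 (left) and NDRG1 (right) against that of RBM47 in the same library, both axes on a log scale, with the dose in ng/ml beside each point and a line through the doses of each clone. In MUT3 cells RBM47 reached 22084 while SLC2A1 stayed at 7503, and in WT10 cells at a similar RBM47 count of 19877 SLC2A1 was at 5070. These are RNA counts, and a similar RBM47 count does not mean a similar amount of RBM47 protein.

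Between the wild type clones no slope differed at the threshold for any of the 9 genes by limma, edgeR or DESeq2, where 14.4% of all genes tested differed by limma, although 2 of the 9 had an unadjusted p under 0.05. These were NDRG1, with a WT6 minus WT10 difference of 0.12 (SE 0.044, limma adjusted p = 0.0674), and HK2, with -0.11 (SE 0.038, adjusted p = 0.0720). SLC2A1 differed by 0.031 (SE 0.035, limma adjusted p = 0.544). Leaving out the WT6 library at 5 ng/ml brought 4 of the 9 past the threshold, and the share of all genes to 29.4% (NDRG1 0.13, adjusted p = 0.0286, HK2 -0.096, adjusted p = 0.0262, LDHA -0.060, adjusted p = 0.0451, and BNIP3 -0.10, adjusted p = 0.0340). Leaving out WT10 at 25 ng/ml gave NDRG1 a difference of 0.25 (limma adjusted p = 0.0153), and leaving out WT6 at 2.5 ng/ml gave HK2 one of -0.10 (adjusted p = 0.0433).

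**Figure D3:**
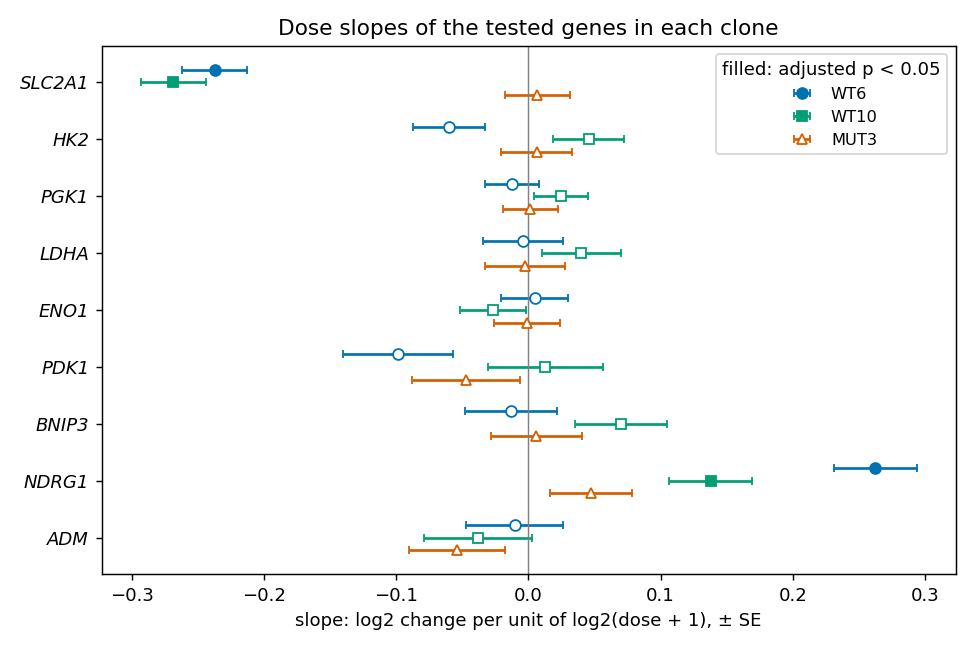
Dose slopes of the 9 tested genes in each clone (points, horizontal axis in log2 units per unit of log2(dose + 1)) with their standard errors (bars), filled where the limma adjusted p was under 0.05. The 4 filled points belong to SLC2A1, left of 0 in WT6 and WT10, and to NDRG1, right of 0 in the same clones.

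The enzymes downstream of the transporter varied little with the dose. HK2, which commits glucose to metabolism, kept between 0.847 and 1.10 of its untreated count in WT6, between 1.02 and 1.18 in WT10 and between 1.01 and 1.02 in MUT3. Its WT6 slope was -0.060 (SE 0.028, limma adjusted p = 0.0739), and without WT6 at 0 ng/ml it was -0.089 (adjusted p = 0.0488). PGK1, which makes ATP in the pay-off phase, kept between 0.942 and 1.03 of its untreated count in WT6 and between 1.01 and 1.08 in WT10. ENO1, the enolase, ranged from 0.871 to 1.01 of the untreated count in WT6 and from 0.877 to 0.959 in WT10. LDHA was within 0.940 to 1.23 of it in WT6, with the top value at 5 ng/ml, and within 1.04 to 1.15 in WT10. In MUT3 cells PGK1, ENO1 and LDHA all stayed between 0.978 and 1.06 of the untreated count. The annotation lists pseudogenes of HK2, PGK1, LDHA, ENO1, PDK1 and BNIP3, and none of them has a row in the table. It also lists genes that overlap PGK1 (among them ATP7A), LDHA and NDRG1 on the same strand.

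PDK1, the brake on pyruvate oxidation, was the scarcest of the tested genes, at 133.5 to 198.7 normalized counts. In WT6 cells it stood at 191.8 untreated and between 147.0 and 193.5 with doxycycline. Its slope there was -0.099 (SE 0.042, limma adjusted p = 0.0542), and the call was made without MUT3 at 0 ng/ml (-0.099, adjusted p = 0.0348) or without MUT3 at 25 ng/ml (-0.099, adjusted p = 0.0448). BNIP3 was highest in WT6 with 5 ng/ml, at 1.30 times its untreated count, and in WT10 with 25 ng/ml, at 1.23 times. Its WT6 slope was called where WT6 at 25 ng/ml was left out (0.13, limma adjusted p = 0.0449), and its WT10 slope without WT6 at 5 ng/ml (0.070, adjusted p = 0.0300). ADM was lower with doxycycline at every dose in WT10 (0.768 to 0.868 of the untreated count) and in MUT3 (0.810 to 0.866), and lay on both sides of the untreated count in WT6 (0.880 to 1.19).

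CA9, the classical marker of hypoxic tumour cells, was close to the floor in WT10 and MUT3 cells. In order of dose, its normalized counts in WT6 were 55.9, 52.5, 29.0, 32.7 and 32.4. In WT10 cells it was 0, 4.82, 0.997, 1.99 and 3.11, and in MUT3 cells 0, 1.11, 1.98, 0 and 1.05, all near the worth of 3 reads. The lowest count of WT6 was thus above every count of WT10 and MUT3. At 25 ng/ml the WT6 count was 0.579 of the untreated one (95% exact interval of the counting error 0.347 to 0.947), from 26 reads against 51. Fitted with no filter on low counts, its WT6 slope was -0.19 (SE 0.10, limma adjusted p = 0.138) and was not called. A filter on the mean of all 15 libraries gave -0.19 as well (adjusted p = 0.119). The annotation lists ARHGEF39 as overlapping CA9 on the opposite strand.

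Because short transcripts as a class rose in WT6, the slopes were also fitted after each library had been freed of its trends with the length and GC content of transcripts. In WT6 cells 7 of the 9 genes then passed, 2 higher and 5 lower, where 58.6% of the 12113 genes in that fit passed. SLC2A1 remained at -0.23 (limma adjusted p = 1.41e-06) and NDRG1 at 0.25 (adjusted p = 8.87e-07). The genes added were ADM at -0.14 (adjusted p = 0.00104), BNIP3 at -0.13 (adjusted p = 0.000615), ENO1 at -0.10 (adjusted p = 3.74e-05), LDHA at -0.062 (adjusted p = 0.00303) and PGK1 at 0.053 (adjusted p = 0.0444). HK2 turned to 0.016 (adjusted p = 0.421) and PDK1 to 0.026 (adjusted p = 0.572). Thus the calls for SLC2A1 and NDRG1 were the same on both scales, whereas those for ADM, BNIP3, ENO1, LDHA and PGK1 depended on the scale in WT6.

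The level of these genes without doxycycline was compared between clones from the fitted intercepts. WT6 differed from the mean of WT10 and MUT3 for 6 of the 9 genes, 3 higher and 3 lower, where 64.3% of all genes tested differed. ENO1 stood out, with 84843 to 97970 normalized counts over the 5 libraries of WT6, 41953 to 47811 in WT10 and 48210 to 50669 in MUT3, so that WT6 did not overlap the other clones. The log2 difference was 0.98 (SE 0.079, limma adjusted p = 4.06e-08). SLC2A1 was higher in WT6 by 0.60 (SE 0.079, adjusted p = 8.58e-06). ADM was above the mean of the other clones by 0.42 (SE 0.12, adjusted p = 0.00530), but its untreated count of 2724 in WT6 lay between 1235 in WT10 and 3959 in MUT3, and leaving out the highest dose of all clones brought the difference to 0.22 (adjusted p = 0.0879). NDRG1 was lower than in the other clones (-0.48, adjusted p = 0.000649), as were PGK1 (-0.34, adjusted p = 0.000283) and HK2 (-0.24, adjusted p = 0.0243). The HK2 call ended without WT6 at 0 ng/ml (-0.14, limma adjusted p = 0.291) and without WT6 at 25 ng/ml (-0.22, adjusted p = 0.0564). LDHA (0.20, adjusted p = 0.0775) and PDK1 (0.30, adjusted p = 0.0537) missed the threshold, but passed without WT6 at 5 ng/ml (LDHA 0.16, adjusted p = 0.00588, PDK1 0.32, adjusted p = 0.0257), and PDK1 passed also without MUT3 at 1 ng/ml (0.33, adjusted p = 0.0423) or at 25 ng/ml (0.35, adjusted p = 0.0247).

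WT10 and MUT3, which the methods of the study derive from the same line, differed without doxycycline for 7 of the 9 genes, 1 higher and 6 lower in WT10, where 28.2% of all genes tested differed. ADM was set furthest apart, at 949 to 1235 normalized counts in WT10 and 3208 to 3959 in MUT3, a log2 difference of -1.75 (SE 0.14, limma adjusted p = 7.65e-07). LDHA, at 19999 to 23033 against 33326 to 35309, differed by -0.78 (SE 0.11, adjusted p = 0.000105). The difference was -0.48 for BNIP3 (adjusted p = 0.0105) and -0.33 for PGK1 (adjusted p = 0.00448), and SLC2A1 alone was higher in WT10, by 0.78 (SE 0.091, adjusted p = 2.12e-05). Over all doses the ranges of ADM, LDHA, PGK1 and BNIP3 did not overlap between these clones, nor did those of ENO1, whose difference of -0.090 was not called (limma adjusted p = 0.495).

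Among the remaining calls between WT10 and MUT3, those of NDRG1 (-0.37, limma adjusted p = 0.0255) and PDK1 (-0.43, adjusted p = 0.0462) were not made by edgeR on the reads of 14 libraries (adjusted p = 0.0606 and 0.0626) or by DESeq2 (0.0592 and 0.0805). That of BNIP3 ended without MUT3 at 0 ng/ml (-0.50, limma adjusted p = 0.0537). For NDRG1 leaving out any of 7 single libraries ended the call, and for PDK1 any of 11. Each clone is 1 line of cells, so these differences compare clones.

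Levels of different genes were compared per kilobase of transcript, as normalized counts per kilobase. ENO1 was the most abundant of the 10 in every clone, with a median of 54640 per kilobase in WT6, 24744 in WT10 and 27677 in MUT3, and LDHA came second at 13063, 9373 and 15374. Their ranges over the 5 libraries of a clone did not meet. SLC2A1 came next by the median in WT6 and WT10, and its range overlapped that of PGK1, which followed. In MUT3 cells PGK1 (median 3343) and ADM (2292) came before SLC2A1 (2208), and the ranges of ADM and SLC2A1 overlapped. ADM had a median of 1826 in WT6, above BNIP3, and of 714 in WT10, below BNIP3, where its range overlapped that of NDRG1. BNIP3, NDRG1 and HK2 lay between 341 and 1325 per kilobase in every clone, with NDRG1 and HK2 overlapping in WT6 and WT10. PDK1 (9.49 to 14.1) and CA9 were the lowest in all clones, PDK1 being divided by an annotated transcript of 14072 bases.

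The 9 genes did not share a common pattern over the libraries. Of the 36 pairs, Pearson's r of the deviations from the clone means over 15 libraries was above 0.5 for 4 and below -0.5 for 2, with a median of 0.038. LDHA and PGK1 (0.87), LDHA and BNIP3 (0.85) and PGK1 and BNIP3 (0.83) were the most alike, and SLC2A1 and NDRG1 were the most opposed (-0.88). The genes whose pattern was most like the mean of the 9 were HMMR (0.79), HNRNPH1 (0.78), POLR2J3 (0.77), COIL (0.76) and PPM1H (0.76). All these values share the libraries, their size factors and the dose, and are given as a description.

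The other genes of glycolysis were followed as a list of 18, of which 17 were tested. In WT6 cells 3 rose and 6 fell, in WT10 2 rose and 2 fell, and in MUT3 0 passed (limma, with 0 at an unadjusted p under 0.05, and 0 by edgeR and DESeq2), where 29.2% of all genes tested rose and 28.3% fell in WT6 and 10.2% rose and 9.83% fell in WT10. The genes that fell in both wild type clones were PFKP and PFKFB3, which act at the phosphofructokinase step, PFKP as the enzyme and PFKFB3 as the maker of its activator. PFKP went from 8638 through 8957, 7366 and 6606 to 5172 in WT6 and from 9334 through 8488, 7987 and 7006 to 6088 in WT10, but stayed between 10496 and 10991 in MUT3. PFKFB3 went from 1126 to 492.0 in WT6 and from 1820 to 1088 in WT10, and from 1456 to 1672 in MUT3. The slopes of PFKP were -0.17 (SE 0.023, limma adjusted p = 3.50e-05) and -0.13 (SE 0.023, adjusted p = 0.00123), and those of PFKFB3 -0.27 (SE 0.036, adjusted p = 3.87e-05) and -0.16 (SE 0.033, adjusted p = 0.00362). Without WT10 at 25 ng/ml neither was called in WT10 (PFKP -0.15, adjusted p = 0.135, PFKFB3 -0.14, adjusted p = 0.301). In that fit 6 of all 12644 genes were called in WT10. With length and GC trends removed 1 rose and 12 fell in WT6, where 27.1% of all genes in that fit rose and 31.5% fell, and 3 rose and 7 fell in WT10, where 15.5% rose and 20.6% fell.

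Of 11 genes that make up HIF or sense oxygen, 9 were tested. In WT6 1 rose and 4 fell, and in WT10 and MUT3 0 of the 9 passed by limma, edgeR or DESeq2, with 1 in each at an unadjusted p under 0.05 by limma. The 5 of 9 in WT6 stand beside the 57.5% of all genes that passed there. They are named after their values were seen. HIF1A (-0.14, limma adjusted p = 0.00796), EPAS1 (-0.25, adjusted p = 6.92e-05) and ARNT (-0.13, adjusted p = 0.00335) encode subunits of HIF, HIF1AN (-0.076, adjusted p = 0.0214) an oxygen sensor and CITED2 (0.16, adjusted p = 0.00116) an inhibitor of HIF. With length and GC trends removed 5 rose and 3 fell in WT6, HIF1AN among those that rose (0.041, limma adjusted p = 0.0470). Of all genes in that fit 27.1% rose and 31.5% fell in WT6. In WT10 1 of the 9 then rose, VHL (0.076, adjusted p = 0.00645), and 0 fell, where 15.5% of all genes rose and 20.6% fell. Without WT6 at 25 ng/ml HIF1A (-0.12, adjusted p = 0.238) and CITED2 (0.074, adjusted p = 0.326) were not called, and without WT6 at 0 ng/ml HIF1AN was not (-0.058, adjusted p = 0.173).

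Of 22 other genes induced by hypoxia, 21 were tested. In WT6 7 rose and 5 fell by limma, and 7 rose and 4 fell by edgeR and by DESeq2. In WT10 6 rose and 0 fell by limma, edgeR and DESeq2, with 1 lower at an unadjusted p under 0.05 by limma. Over all genes tested by limma, 29.2% rose and 28.3% fell in WT6, and 10.2% rose and 9.83% fell in WT10. With length and GC trends removed the direction was mixed in both clones, since 9 rose and 7 fell in WT6 and 6 rose and 4 fell in WT10. Of all genes in that fit 27.1% rose and 31.5% fell in WT6, and 15.5% rose and 20.6% fell in WT10. In MUT3 0 of the 21 passed, and 4 had an unadjusted p under 0.05 by limma, all higher. Of all 12644 genes tested 295 had one there, 170 higher and 125 lower. The 4 that rose in both clones were INSIG2, which restrains sterol synthesis, MXI1, an antagonist of MYC, P4HA2, a collagen hydroxylase, and BHLHE40, a transcriptional repressor. INSIG2 went from 230.1 to 504.5 between 0 and 25 ng/ml in WT6 and from 323.5 to 836.2 in WT10, against 445.2 to 454.7 in MUT3. MXI1 went from 232.3 to 437.2 in WT6 and from 402.4 to 619.6 in WT10, against 564.0 to 597.1 in MUT3. For these genes the wild type clones together differed from MUT3 in slope, by 0.29 for INSIG2 (limma adjusted p = 0.00293) and by 0.15 for MXI1 (adjusted p = 0.00877). The study names MXI1 among the genes that RBM47 raised. It selected such genes on these same libraries for a correlation in WT6 and WT10 and none in MUT3. The rise of MXI1 and its difference from MUT3 are therefore not independent evidence.

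The other pair was not set apart from MUT3. P4HA2 went from 1784 to 2864 in WT6, from 763.8 to 1440 in WT10 and from 277.6 to 408.6 in MUT3, and BHLHE40 from 1482 to 2479, from 414.3 to 942.9 and from 138.8 to 211.6. Their mean wild type slopes exceeded those of MUT3 by 0.063 for P4HA2 (limma adjusted p = 0.381) and by 0.052 for BHLHE40 (adjusted p = 0.627). Without WT10 at 25 ng/ml the WT10 slopes of INSIG2 (0.26, adjusted p = 0.204), MXI1 (0.076, adjusted p = 0.503), P4HA2 (0.041, adjusted p = 0.758) and BHLHE40 (0.061, adjusted p = 0.735) were not called. In that fit 6 of all 12644 genes were called in WT10. Without WT6 at 25 ng/ml the WT6 slopes of P4HA2 (0.051, adjusted p = 0.522) and BHLHE40 (0.048, adjusted p = 0.633) were not called.

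Of 11 genes of the mitochondrial pyruvate carrier and of pyruvate dehydrogenase with its regulators, 10 were tested. In WT6 4 rose and 3 fell by limma and DESeq2, and 3 rose and 3 fell by edgeR. In WT10 2 rose and 0 fell by limma, edgeR and DESeq2, with 0 lower at an unadjusted p under 0.05 by limma. Beside these stand the 29.2% and 28.3% of all genes in WT6 and the 10.2% and 9.83% in WT10 (limma). With length and GC trends removed 3 of the 10 rose and 2 fell in WT6 (27.1% and 31.5% of all genes). In WT10 1 rose and 0 fell (15.5% and 20.6% of all genes). Before these trends were removed, BRP44L and PDHX were the genes of this list that rose in both clones. BRP44L, now named MPC1, is a subunit of the mitochondrial pyruvate carrier, and PDHX anchors a subunit of pyruvate dehydrogenase. BRP44L went from 453.7 through 411.8, 491.9 and 837.9 to 965.4 in WT6 and from 513.9 through 548.8, 593.4 and 652.9 to 842.4 in WT10, while MUT3 ended at 797.2 from 901.6. Its slopes were 0.28 (SE 0.043, limma adjusted p = 0.000109) and 0.16 (SE 0.043, adjusted p = 0.0187), and their average exceeded the slope of MUT3 by 0.26 (adjusted p = 0.00320). The transcript of BRP44L, at 904 bases, is in the shortest class, and with length and GC trends removed its WT6 slope was 0.13 (limma adjusted p = 0.000487). Its WT10 call ended without WT10 at 25 ng/ml (0.13, adjusted p = 0.464) or at 0 ng/ml (0.17, adjusted p = 0.0561). In these fits 6 and 2060 of all 12644 genes were called in WT10. PDHX had smaller slopes of 0.074 (SE 0.025, adjusted p = 0.0179) and 0.082 (SE 0.025, adjusted p = 0.0313), and in each clone leaving out its library at 0, 1 or 25 ng/ml ended the call (adjusted p between 0.0511 and 0.367), with slopes of 0.064 to 0.11 in WT6 and 0.076 to 0.095 in WT10. With length and GC trends removed its WT10 slope was 0.043 (adjusted p = 0.0575).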

How the data were processed

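The authors aligned paired-end reads of poly(A) RNA to hg19 (STAR), summed them over genes (HTSeq 0.5.4, version per the labels, at its defaults, which count by strand) and divided the sums by DESeq size factors. The deposited signal is this normalized count. The annotation, whether the library kit marks strand and how long doxycycline was applied are not given in the sources used here. Reads were recovered by dividing a library by the worth of 1 read, which gave whole numbers for 100% of values (tolerance 0.01). Slopes and intercepts per clone on log2(dose + 1) were fitted with limma 3.58.1 (vooma weights, pseudocount 1, 6 coefficients, 9 residual degrees of freedom) in R 4.3.3. The fit was also run on simulated counts, which held no length trend like that of WT6, and no result here rests on that run. Count tests used edgeR 4.0.16 and DESeq2 1.42.0. Length and GC content, from 1 transcript per gene, came from GENCODE release 44, matched for 91.9% of genes. Named genes were the 10, up to 4 per further list called alike in WT6 and WT10 with the largest smaller slope, and the 5 most like the mean of the 9 tested. The genes, lists and tests were chosen with earlier results of these data known. Each clone and dose has 1 library, so p-values rest on deviations from the dose line, and counting intervals cover counting error only.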

Additional observations from a re-analysis of the deposited data

Results flagged for a closer look

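For SLC2A1 the average slope in WT6 and WT10 differed from the MUT3 slope by -0.26 log2 units per unit of log2(dose + 1), with slopes of -0.24 in WT6, -0.27 in WT10 and 0.0069 in MUT3. For NDRG1 the difference was 0.15, with slopes of 0.26, 0.14 and 0.047. Both were listed because the difference itself passed the test (limma adjusted p = 0.000355 and 0.0114). For SLC2A1 the study had already selected on these same libraries for a fall with RBM47 and no correlation in MUT3. With 1 library per clone and dose, no group was large enough for a test of single outlying samples.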

How the results depend on the processing

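The number of the 9 genes that passed was recomputed under 27 or 28 alternatives, and is given with the number over all genes where it moved. In WT6 it was 2 as reported, 7 with length and GC trends removed, and 0 with RBM47 in place of the dose or with any doxycycline set against none, where 1 and 0 of all genes passed. In WT10 it was 2 as reported, 1 with the dose as its rank (2097 of all genes), and 0 with RBM47 in place of the dose, with any doxycycline against none or without the libraries at 25 ng/ml (88, 0 and 17 of all genes). In MUT3 it was 0, and 1 with each clone fitted alone (ADM, limma adjusted p = 0.0487, and 176 of all genes). For the mean wild type slope against MUT3 it was 2, and 0 with RBM47 in place of the dose, with any doxycycline against none or without 25 ng/ml (0, 0 and 1 of all genes). For WT6 against WT10 it was 0, and 2 with length and GC trends removed (1837 of all genes). Any doxycycline against none reduced the level calls from 6 to 1 for WT6 and from 7 to 1 for WT10 against MUT3, and those over all genes from 8132 to 3870 and from 3562 to 200. Leaving out single libraries gave between 2 and 3 for WT6, 0 and 3 for WT10, 0 and 0 for MUT3, 0 and 2 against MUT3, 0 and 4 between the wild type clones, 5 and 8 for the level of WT6 and 5 and 7 for that of WT10 against MUT3. The cause was not tested. The WT6 minus WT10 slope of SLC2A1 turned from 0.031 to -0.030 without the libraries at 25 ng/ml, and ranged from -0.028 (without WT10 at 25 ng/ml) to 0.066 when single libraries were left out. With length and GC trends removed the WT6 slopes of HK2, PDK1 and HIF1AN turned to 0.016, 0.026 and 0.041. Fits on reads used 14 libraries, without WT10 at 2.5 ng/ml, a choice made after seeing the data, and the fits on all 15 were not run. By replicate number no paired analysis was possible because each clone and dose has 1 library. With the dose as a block, also chosen after seeing the data, levels averaged over all doses differed for 5 of the 9 genes in each level comparison, without NDRG1 (-0.13, limma adjusted p = 0.271, and -0.18, adjusted p = 0.273) and, between WT10 and MUT3, without SLC2A1 (0.22, adjusted p = 0.289).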
